A study of Mus musculus with 2 samples.

Results

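Organic ion and drug transporters were read in whole kidney after ischemic injury, in a pool of wild-type mice and a pool of mice lacking estrogen sulfotransferase. They were taken as all probe sets with a single gene symbol in the families Slc22, Slc47, Slc15, Slco, Abca, Abcb, Abcc and Abcg, which gave 139 of 45101 probe sets and 80 of 18194 named genes. Within these families genes entered by symbol alone, but the families were chosen with earlier results of these data known. Both groups were male mice of strain C57BL/6 labelled as having acute kidney injury. The protocol describes 30 min of warm ischemia of both kidneys, death 24 h later and an age of 8 weeks for the wild-type mice, and does not repeat these for the EST KO mice. The WT AKI group was 1 pool of renal tissue from 3 mice (180 mg) and the EST KO AKI group 1 pool from 6 mice (124 mg), where AKI is acute kidney injury and EST is the product of Sult1e1. Each pool was hybridised to 1 array, so no difference between genotypes could be tested, nothing is known of how mice differ, and precision is limited by the small number of arrays. No uninjured kidney is part of the comparison. How the Sult1e1 allele was made, and in which cells it is lost, is not stated in the labels. One protocol field names liver for the EST KO pool, where its other fields name kidney.

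The proximal tubule clears drugs, toxins and metabolic waste from blood into urine. Carriers of the SLC superfamily on its basolateral side take up organic anions in exchange for dicarboxylates, and organic cations along the membrane potential. On the luminal side, proton exchangers, urate carriers and ATP-driven ABC pumps pass the substrates into the urine or take some of them back. Estrone sulfate, which estrogen sulfotransferase makes, is a textbook substrate of several of these carriers, among them OAT3 (Slc22a8), Oatp1a1 (Slco1a1) and the breast cancer resistance protein (Abcg2).

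The labelled tissue was checked against marker genes, which needed a background level. As background served the value under which 95% of 129 probe sets for odorant, pheromone and taste receptors and hair keratin-associated proteins fell on an array, which was 676.1 intensity units for WT and 638.3 for EST KO. Genes counted as measured where the brightest probe set exceeded this level in at least 1 pool. Sult1e1 itself lay below background in both pools (472.7 and 17.2), so it does not check the genotype. Of 10 hepatocyte markers 5 were measured, the brightest being Cyp2e1 (11569 and 20655), a cytochrome P450 that kidney expresses too. Apoh (861.6 and 874.7) and Cps1 (730.7 and 811.7) were also above background in both pools, and the rest of the 5 in 1 pool alone. Alb, Apoa1, Apoa2, Ahsg and Fabp1, which hepatocytes express at high levels, lay below background in both pools, as did the liver transporters Slco1b2 (362.8 and 542.5) and Abcb11 (299.2 and 262.9). Of 17 measured proximal tubule markers 15 were higher in the EST KO pool, with a median log2 ratio of 0.60 (EST KO minus WT throughout).

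Of the 80 genes, 38 were measured: 31 in both pools, 6 in the WT pool alone and 1 in the EST KO pool alone. The other 42 lay below background in both. Dim values were held at background, so that a ratio against one of them is a bound, written "at least". Of the 38 genes, 8 were at least 2-fold higher in the EST KO pool (21.1%), against 3.02% of all 7480 measured genes, and 1 was at least 2-fold lower (2.63%), against 1.40% of all. Of 17 measured proximal tubule markers, 4 were at least 2-fold higher, so such a share was not particular to the transporters. All 8 higher transporters were above background in both pools, whereas the lower one, Slc22a7, was measured only through the WT pool. Of the 38, 22 were higher by any amount (57.9%), against 43.6% of all measured genes. Their median log2 ratio was 0.05 and that of all measured genes was -0.05. The SLC-type carriers and the ABC transporters differed in this respect. The 20 measured SLC-type carriers had a median of 0.64, with 15 higher and 5 lower, and held all 9 of the 2-fold differences. The 18 measured ABC transporters had a median of -0.05, with 7 higher and 11 lower and none at 2-fold. With dim values at background, a gene with a WT value under 2 times the EST KO background could not count as 2-fold lower. Most of the measured ABC transporters were that dim, and fewer of the SLC-type carriers. The groups therefore cannot be compared on 2-fold lower counts.

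**Figure D1:**
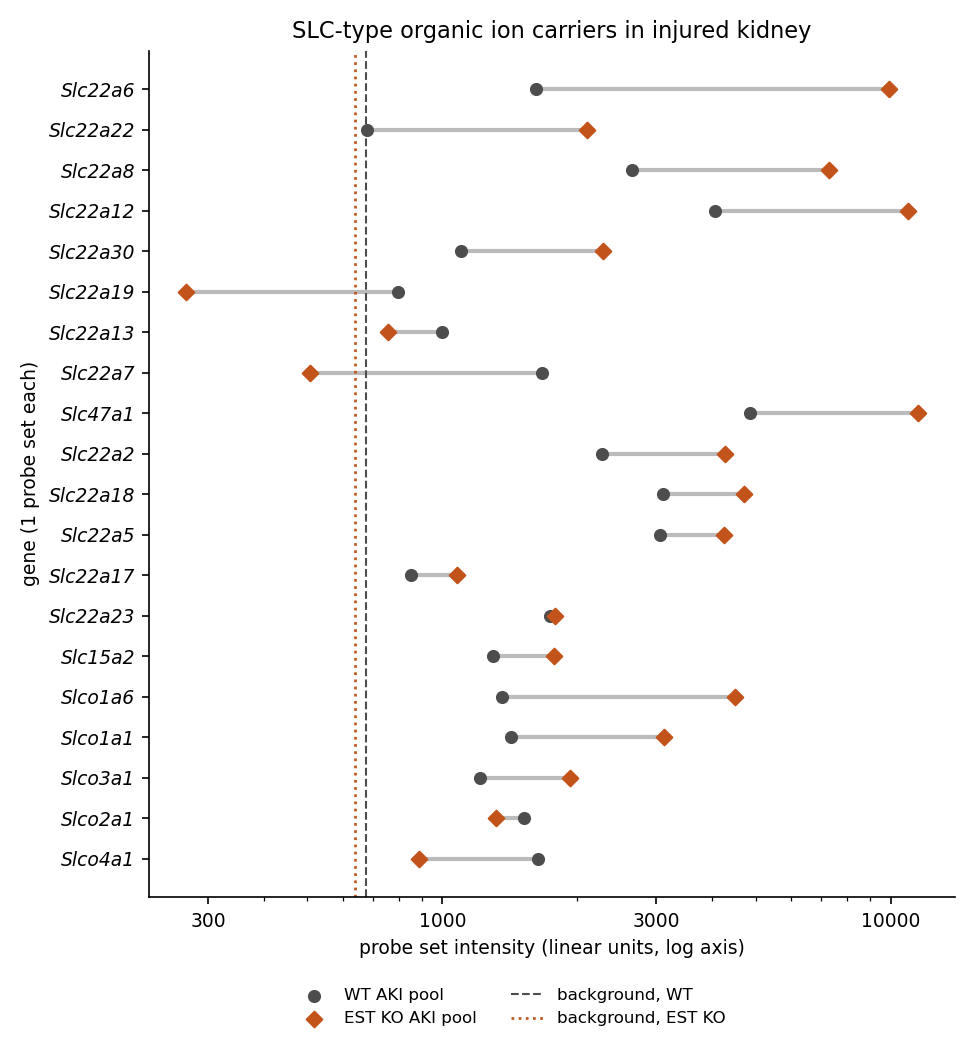
Intensity of the 20 measured SLC-type carriers in the WT AKI pool (circles) and the EST KO AKI pool (diamonds), on a log axis, 1 probe set per gene and 1 array per pool; the vertical lines are the background of each array. Slc22a6 shows the longest distance between pools, from 1622 to 9904, and Slc22a7 and Slc22a19 fall below background in the EST KO pool.

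The sequences upstream of the organic anion carrier genes are shown first because Slc22a30, Slc22a8 and Slc22a6 lie side by side on chromosome 19, with no protein-coding gene between neighbours, and all 3 were at least 2-fold higher in the EST KO pool. Of 19 such adjacent pairs among the 79 transporter genes placed on the RefSeq map, 3 had both genes measured: Slc22a30 with Slc22a8, Slc22a8 with Slc22a6, and Abcb1b with Abcb4. The 250 bases before the start of each gene are given 5′ to 3′ on the gene's strand, from RefSeq, build GRCm38.p6. They lie at chr19:8405106-8405355 (minus strand) for Slc22a30, at chr19:8592932-8593181 (plus strand) for Slc22a8 and at chr19:8617746-8617995 (plus strand) for Slc22a6. Capitals mark GTTAAT, which is one arm of the palindromic site of HNF1, a transcription factor of the proximal tubule and liver.
Slc22a30: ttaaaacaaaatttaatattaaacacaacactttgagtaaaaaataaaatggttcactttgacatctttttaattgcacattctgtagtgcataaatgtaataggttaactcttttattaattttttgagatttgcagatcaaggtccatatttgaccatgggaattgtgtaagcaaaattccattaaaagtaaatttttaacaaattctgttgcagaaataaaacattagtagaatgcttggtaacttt
Slc22a8: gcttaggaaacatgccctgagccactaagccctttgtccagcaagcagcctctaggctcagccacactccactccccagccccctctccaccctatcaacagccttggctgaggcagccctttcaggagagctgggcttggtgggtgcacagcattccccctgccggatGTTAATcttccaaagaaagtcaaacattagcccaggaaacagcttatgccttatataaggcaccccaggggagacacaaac
Slc22a6: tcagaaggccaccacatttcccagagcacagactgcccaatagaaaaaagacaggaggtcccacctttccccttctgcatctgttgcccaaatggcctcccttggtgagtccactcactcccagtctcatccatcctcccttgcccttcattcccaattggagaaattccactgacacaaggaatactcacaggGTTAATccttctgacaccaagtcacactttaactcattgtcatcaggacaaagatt
GTTAAT lies from base -81 to -76 before the start of Slc22a8 and from base -56 to -51 before that of Slc22a6, in both cases on the gene's strand. Neither strand of the Slc22a30 window holds it. A promoter was listed for 66 of the 80 genes, in 76 windows. Searched on both strands in the 250 bases, GTTAAT was present for 4 of the 66: Slc22a6, Slc22a8, Slc22a29 and Slco1b2, of which the latter pair lay below background. Over all RefSeq promoter windows of this length it was present for 7.49% of genes with a listed promoter, in 6.43% of windows. CAAAGTCCA, a form of the HNF4 site, was in the windows of none of the 66 genes; it was present for 0.451% of all genes with a listed promoter. The motifs do not overlap in sequence, and a match is a description of the letters, not evidence that a factor binds there.

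Organic anion carriers of the Slc22 family stood at both ends of the range. Of 11 genes 8 were measured, 5 of them past 2-fold on the higher side and 1 on the lower side, with a median log2 ratio of 1.24. Slc22a6, which encodes OAT1, the basolateral carrier that takes up p-aminohippurate and uremic toxins such as indoxyl sulfate, read 1622 for WT and 9904 for EST KO, a 6.11-fold difference. Its other probe set read 111.8 and 1243, at least 1.84-fold higher. The EST KO pool was thus above the WT pool on both probe sets.

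Slc22a8, which encodes OAT3, the basolateral carrier of larger anions including estrone sulfate, read 2653 and 7277 (2.74-fold higher). Its other probe set lay below background in both pools (326.0 and 498.5), and with the log2 mean of the 2 the difference was 1.03 on the log2 scale, still just past 2-fold. Slc22a12, the luminal urate carrier URAT1, read 4060 and 10928.5 (2.69-fold higher). A separate probe set of Slc22a12, dimmer and not shared with other transcripts, read 763.5 and 2197, a 2.88-fold difference in the same direction. Genes for uptake carriers of the blood side and for a reabsorbing carrier of the lumen were both higher in the EST KO pool.

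Slc22a22, which encodes the prostaglandin carrier OAT-PG of mouse kidney, read 679.3 and 2098 (3.09-fold higher). The WT value stood only just above background, and with a pseudocount in place of the floor the log2 ratio was 1.01 instead of 1.63. Slc22a30, a rodent gene next to Slc22a8 on chromosome 19, read 1098 and 2280 (2.08-fold higher). Its log2 ratio was 0.72 with a pseudocount, under 2-fold.

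The organic anion carriers that were lower included the only transporter past 2-fold on that side. Slc22a7, which encodes OAT2 and is known in mouse kidney as a female-biased gene, had a WT value of 1666 and an EST KO value of 506.2, the latter below background, a difference of at least 2.61-fold. It was read by 1 probe set that may read more than 1 transcript. Slc22a19, which encodes Oat5, a luminal carrier of sulfated steroids, read 794.3 and 268.1, at least 1.24-fold lower. Slc22a13, which encodes OAT10, a luminal carrier of urate and nicotinate, read 999.5 and 756.7 (1.32-fold lower). Slc22a26 (587.9 and 579.2), Slc22a29 (281.2 and 416.4) and Slc22a27 (10.2 and 11.5), which complete the group and lie in the same cluster as Slc22a19 and Slc22a30, were below background in both pools. Genes of that cluster are close copies, so a probe set cannot be taken to read 1 of them alone.

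The organic cation pathway was higher on both sides of the cell. Slc22a2, which encodes OCT2, the basolateral entry step for creatinine and metformin, read 2270.2 and 4269 (1.88-fold higher), and its log2 ratio of 0.91 became 1.02 when each array was centred on its median. Slc47a1, which encodes MATE1, the luminal proton exchanger that completes cation secretion, read 4848 and 11522 (2.38-fold higher). Each was read by 1 probe set. No other gene of this group was among the 80.

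The remaining Slc22 genes differed less. Slc22a5, which encodes the carnitine carrier OCTN2, read 3054 and 4256 (1.39-fold higher), and its other probe set read 1374 and 2328 (1.69-fold higher). Slc22a18, an imprinted gene without a settled substrate, read 3104 and 4711 (1.52-fold higher). Its other probe set read 388.8 and 2185, at least 3.23-fold higher, so that the log2 mean of the probe sets gave a ratio of 1.55 against 0.60. Slc22a17, a cell-surface receptor for lipocalin 2, read 852.0 and 1078 (1.27-fold higher). Slc22a23, an orphan carrier, read 1742 and 1785, a log2 ratio of 0.04 that was -0.0028 with quantile normalization. All 4 measured genes of this group were thus on the higher side, none at 2-fold. Slc22a4, the ergothioneine carrier, was among the 5 below background (515.9 and 387.9), with Slc22a14, Slc22a15, Slc22a16 and Slc22a21.

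Peptide carriers gave no settled direction. Slc15a2, which encodes PEPT2, the high-affinity peptide carrier of the late proximal tubule, was the only measured gene of 5. Its brightest probe set read 1300.1 and 1777, 1.37-fold higher, and another probe set 501.0 and 865.8, at least 1.28-fold higher. A further probe set read 1777 and 1193, 1.49-fold lower. It was the only one of 13 transporters with several measured probe sets whose probe sets opposed each other. Slc15a1, which encodes PEPT1 of the early proximal tubule, lay below background (156.8 and 189.9), as did Slc15a3, Slc15a4 and Slc15a5.

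Among the organic anion transporting polypeptides (Slco), the kidney forms of the Slco1a cluster were higher in the EST KO pool. Slco1a6, a kidney-enriched member, read 1361 and 4494 (3.30-fold higher). Slco1a1, which encodes the luminal, male-biased carrier Oatp1a1 of steroid conjugates, read 1427 and 3129 (2.19-fold higher, log2 0.84 with a pseudocount), and on its other probe set 59.5 and 2026, at least 3.00-fold higher. The pair lies on chromosome 6 with 1 protein-coding gene between them. Slco1a5 (67.8 and 148.1) and Slco1a4 (356.7 and 177.4), next to Slco1a6 and to Slco1a1, were below background in both pools.

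Outside that cluster the Slco genes went both ways. Slco3a1, a widely expressed carrier of prostaglandins and thyroxine, read 1211 and 1926 (1.59-fold higher), with 3 measured probe sets in the same direction. Slco4a1, a thyroid hormone carrier, read 1632 and 888.8 (1.84-fold lower). Its other probe set read 1365 and 437.4, at least 2.14-fold lower, and the log2 mean of both, below background in the EST KO pool, gave a bound of -1.23 on the log2 scale, past 2-fold. Slco2a1, the prostaglandin uptake carrier found on endothelium, read 1522 and 1318 (1.15-fold lower) and 878.0 and 656.8 on its other measured probe set. Endothelial markers moved the same way: 11 of 11 measured markers were lower in the EST KO pool, with summed intensities of 15696 (WT) and 11751 (EST KO) and a median log2 ratio of -0.32. Their part in the Slco2a1 value was not tested. Slco4c1, the basolateral digoxin and thyroid hormone carrier of kidney, read 37.9 and 30.2, far below background, and was among 10 Slco genes not measured.

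**Figure D2:**
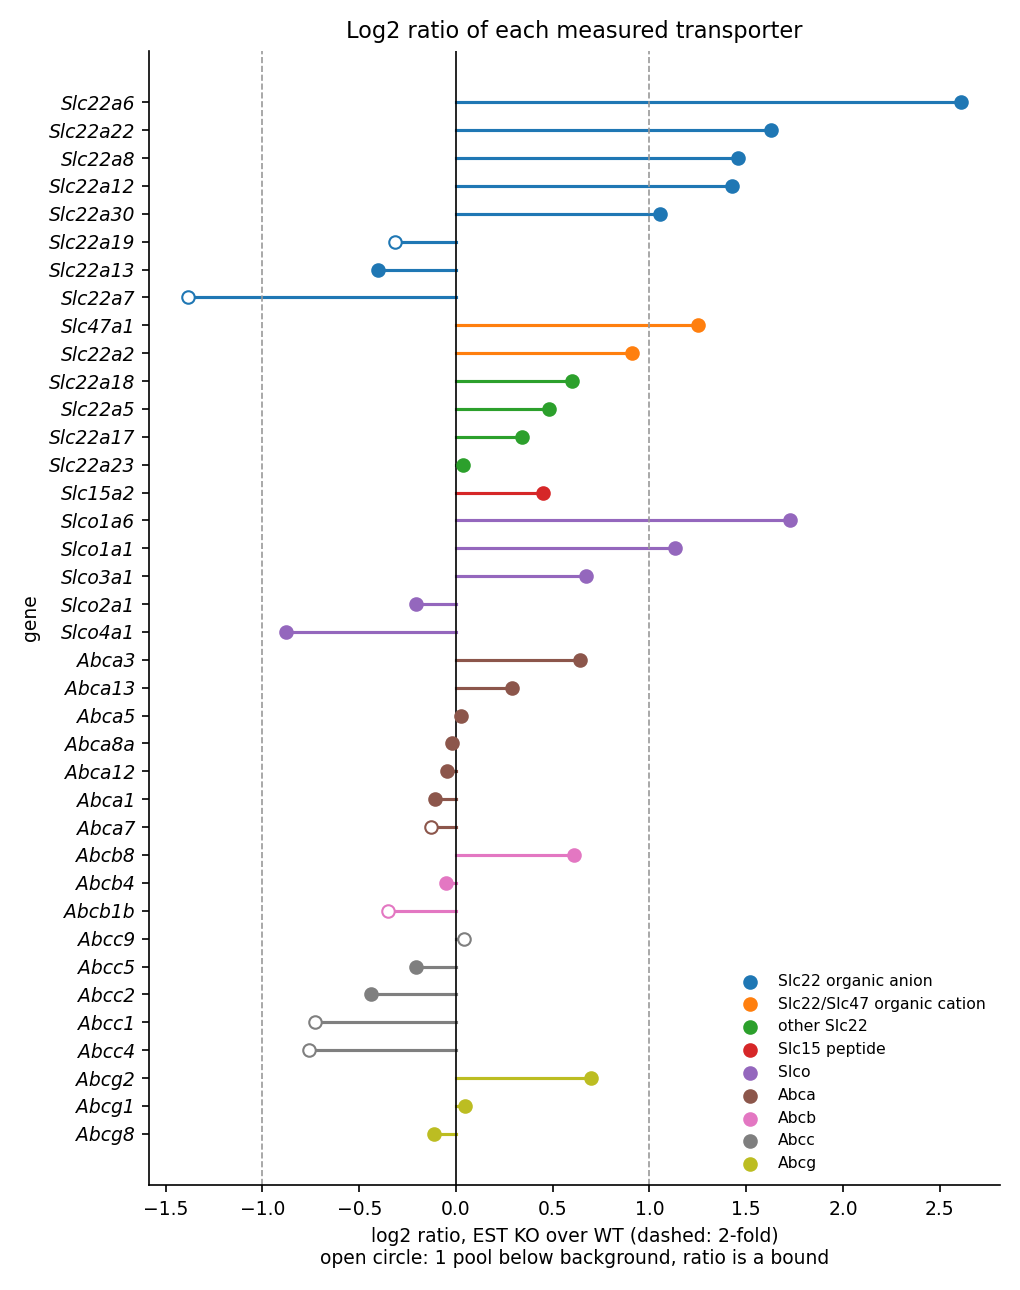
Log2 ratio (EST KO over WT) of the 38 measured transporters, ordered by family; filled circles are above background in both pools, open circles in 1 pool alone, where the ratio is a bound. Ratios at or past the dashed 2-fold lines belong to 8 SLC-type carriers on the right and Slc22a7 on the left, and no ABC transporter reaches them. Most ABC transporters were too dim in the WT pool to reach the left line with dim values at background.

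ABCC genes were on the lower side in 4 of 5 measured, against 4084 of all 7480 measured genes. The 5 had a median log2 ratio of -0.44, with none at 2-fold. With the EST KO value held at background, Abcc1 and Abcc4 were too dim in the WT pool to reach 2-fold. Without the floor their log2 ratios were -0.99 and -0.92. The 4 lower genes encode export pumps, and the other, Abcc9, does not. Abcc4, which encodes the luminal pump MRP4 for cyclic nucleotides, urate and conjugates, read 1082 and 571.1, at least 1.70-fold lower. Abcc1, which encodes MRP1, an exporter of glutathione conjugates, read 1056 and 530.8, at least 1.65-fold lower, whereas its other probe set, which reads a single transcript, gave 780.2 and 672.7 (1.16-fold lower). Abcc2, which encodes the luminal pump MRP2, read 2901 and 2142 (1.35-fold lower). The genes for the luminal pumps MRP2 and MRP4 thus differed in the opposite direction from those for the basolateral carriers OAT1 and OAT3.

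Abcc5, an exporter of cyclic nucleotides, read 1705 and 1477 (1.15-fold lower), and its other measured probe sets read 1508 and 1075, and 1356 and 1282. All 3 pointed the same way. Abcc9, the sulfonylurea receptor of potassium channels in vascular muscle, read 484.5 and 696.7, barely above background in the EST KO pool alone. Abcc3, which encodes the basolateral pump MRP3, was below background (361.1 and 166.2), with Abcc6, Abcc8, Abcc10 and Abcc12.

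Abcg2, which encodes the luminal pump BCRP for urate and sulfate conjugates, read 4703 and 7628 (1.62-fold higher), in the opposite direction from 4 of the 5 measured ABCC genes. Abcg1, which exports cholesterol from macrophages and other cells, read 834.3 and 862.9 (log2 0.05), and Abcg8, a sterol transporter of liver and gut, 861.5 and 796.0 (1.08-fold lower). Abcg8's partner and neighbour Abcg5 was below background (156.4 and 218.0), with Abcg3 and Abcg4.

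The drug efflux pump P-glycoprotein was dim in both pools. Abcb1b, one of its mouse genes, read 814.3 and 621.6, at least 1.28-fold lower, on 1 of 2 probe sets, and the other read 26.7 and 93.2. Abcb1a, the other gene, which is typical of endothelium, read 257.2 and 267.3, below background. Abcb4, the phosphatidylcholine transporter next to Abcb1b, read 1257 and 1214 (log2 -0.05). Abcb8, a mitochondrial transporter, read 1085 and 1658 (1.53-fold higher), on a probe set that can read several transcripts. Abcb6, Abcb9 and Abcb10 were below background as well as Abcb1a and Abcb11.

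ABCA lipid transporters lay close to equal in both pools. Of 14 genes 7 were measured, with a median log2 ratio of -0.02 that became 0.09 after centring on the median. Abca3, the surfactant lipid transporter of lung, read 1396 and 2179 (1.56-fold higher), and its other measured probe set gave the same ratio (919.0 and 1431, 1.56-fold). Abca13 read 1229 and 1500.5 (1.22-fold higher) and 1128 and 1351 on its other probe set (1.20-fold higher). Abca1, the cholesterol exporter that loads apolipoprotein A-I, read 967.3 and 897.0 (1.08-fold lower). Abca7, a relative of Abca1, read 697.9 and 525.6, at least 1.09-fold lower. Abca5 (805.3 and 819.3), Abca8a (844.2 and 830.9) and Abca12 (722.5 and 699.7) differed by less than 0.05 on the log2 scale. Macrophage markers were lower in the EST KO pool in 6 of 7 measured genes (median log2 ratio -0.34, summed intensity 13293 and 8780), with Adgre1, C1qa, Fcgr3 and Itgam below background in both; whether they bear on Abca1 and Abcg1 was not tested.

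The only error that 1 array per pool yields is the disagreement between probe sets of a gene. Over 1663 genes for which 2 probe sets were measured on both arrays, the log2 ratios of these differed with an SD of 0.39, which corresponds to 0.28 for a single probe set. It covers the probes and not the mice. Of the 38 transporters, 12 lay within 0.28 of 0, 18 (47.4%) were higher by more and 8 (21.1%) lower by more, against 20.4% and 24.4% of all measured genes. Of 13 transporters with several measured probe sets, 12 had all of them in the same direction. Some of these ratios are bounds, and the share over all genes was not computed.

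**Figure D3:**
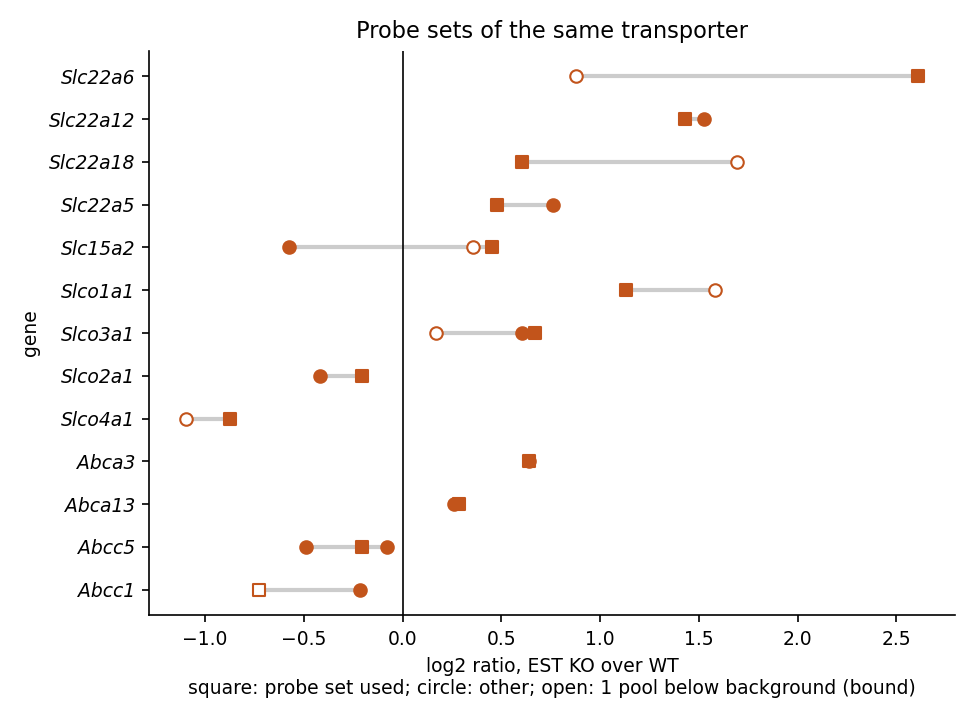
Log2 ratio (EST KO over WT) of each measured probe set for the 13 transporters with more than 1; squares are the probe sets used, circles the others, and open symbols are bounds. Both probe sets of Abca3 and of Abca13 nearly coincide, those of Slc22a18 spread from 0.60 to 1.69, and those of Slc15a2 fall on either side of 0.

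Genes that work with the organic ion carriers showed a comparable spread. A list of 24 such genes, covering driving-force carriers, scaffolds, luminal partners, transcription factors and glutathione enzymes, had 20 on the array and 16 measured, of which 11 were higher and 5 lower in the EST KO pool, 7 past 2-fold on the higher and 1 on the lower side, with a median log2 ratio of 0.72. Slc13a3, the basolateral dicarboxylate carrier NaDC3 that supplies the counter-ion for OAT1 and OAT3, read 726.4 and 4822 (6.64-fold higher). Pdzk1, a scaffold that anchors URAT1 and other luminal carriers, read 1070 and 8243 (7.71-fold higher), and Slc9a3r1, the scaffold NHERF1, 3946 and 9192 (2.33-fold higher). Slc9a3r2, its relative NHERF2, went the other way (2215 and 1572, 1.41-fold lower). Slc13a3, Pdzk1 and Slc9a3r1 were thus on the same side as Slc22a6, Slc22a8 and Slc22a12, and Slc9a3r2 was not.

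Luminal anion and urate carriers of the Slc17 family were also higher, with Slc17a3 (NPT4) at 4697 and 10998.5 (2.34-fold) and Slc17a1 (NPT1) at 3928 and 6717 (1.71-fold). Slc13a1, the luminal sulfate carrier, read 1222 and 6299 (5.15-fold higher), and Slc13a2, the luminal citrate carrier, 640.0 and 1469, at least 2.17-fold higher. Hnf4a, a transcription factor of proximal tubule and liver known to drive many of these genes, read 2271 and 6578 (2.90-fold higher). Ppara, a nuclear receptor of fatty acid metabolism, read 674.6 and 1066, at least 1.58-fold higher, Slc26a1, a basolateral sulfate exchanger, 310.1 and 774.6, at least 1.15-fold higher, and Slc9a3, the sodium-proton exchanger, 2005 and 2204 (log2 0.14). Nr1i2 and Nr1i3, the xenobiotic receptors PXR and CAR, were below background in both pools. Whether Hnf4a bears on the carrier values was not tested.

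The measured glutathione genes of the list, Gclc, Gsr and Gstp1, were lower in the EST KO pool, as were 4 of the 5 measured ABCC genes. Gclc, the rate-limiting enzyme of glutathione synthesis, read 11612 and 5247 (2.21-fold lower), Gsr, glutathione reductase, 4310.1 and 2875 (log2 -0.58), and Gstp1, a glutathione transferase, 7874 and 6453.5 (1.22-fold lower). Nfe2l2, which encodes NRF2, a transcription factor known to drive Abcc1, Abcc2, Abcc4 and Gclc, read 4032 and 3557 (1.13-fold lower). The Nfe2l2 difference was the smallest of these 4. Whether NRF2 bears on the glutathione or ABCC values was not tested.

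**Figure D4:**
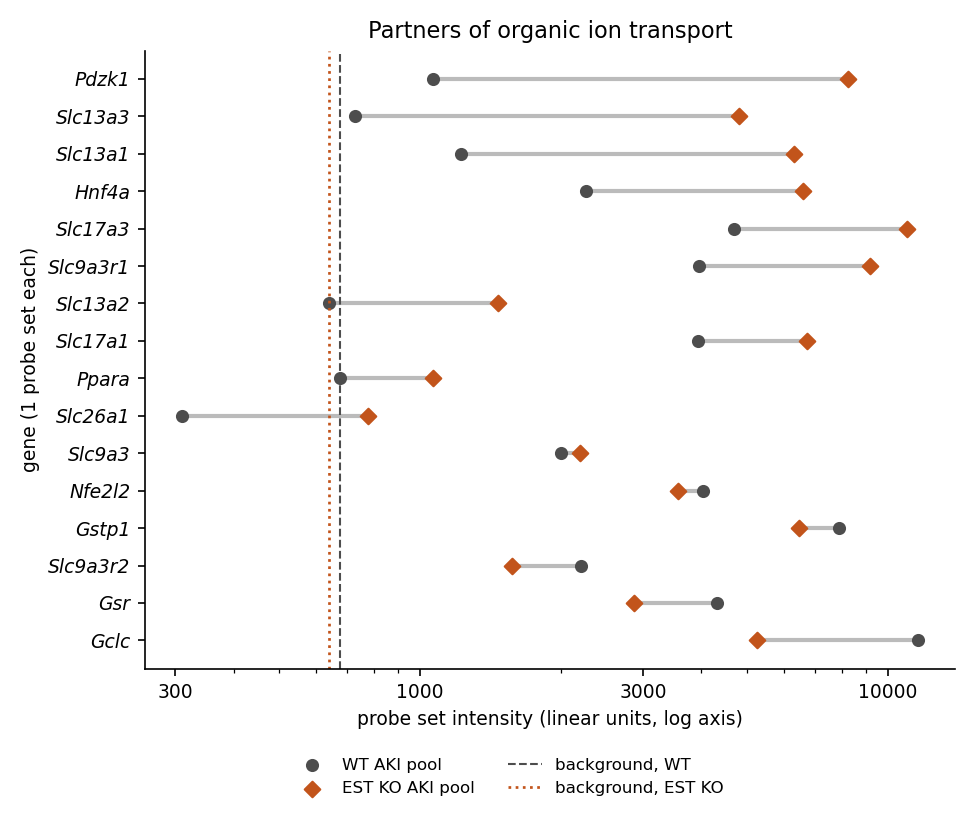
Intensity of the 16 measured partner genes of organic ion transport in the WT AKI pool (circles) and the EST KO AKI pool (diamonds), on a log axis, 1 array per pool, ordered from the highest to the lowest ratio; vertical lines are the backgrounds. Pdzk1 and Slc13a3 lead with 7.71-fold and 6.64-fold higher values, and Gclc ends the list at 2.21-fold lower.

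Markers of the cells that carry these transporters differed as well. Summed over 17 measured proximal tubule markers, intensity was 124895 for WT and 184027 for EST KO. Single genes ran from Napsa, an aspartic protease (log2 -0.53), to Slc7a7, an amino acid carrier (843.4 and 3375). Of the 38 transporters, 14 had a log2 ratio above the marker median of 0.60. The lowest of the 14, Slc22a18, passed it only narrowly and ranked 611 from the highest among all 7480 measured genes. In tubular injury markers the sum was 91595 and 49567, with 7 of 8 measured genes lower (median log2 ratio -0.98). Distal nephron markers had a median of 0.04, but single genes ran from Aqp2 (log2 -0.65) to Slc12a1 (log2 1.19). Their sums were 42206 and 43367, most of which was Umod (25568 and 22735). In pooled whole tissue, fewer cells of a type and less RNA per cell cannot be told apart, and the part of these markers in the transporter values was not tested.

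**Figure D5:**
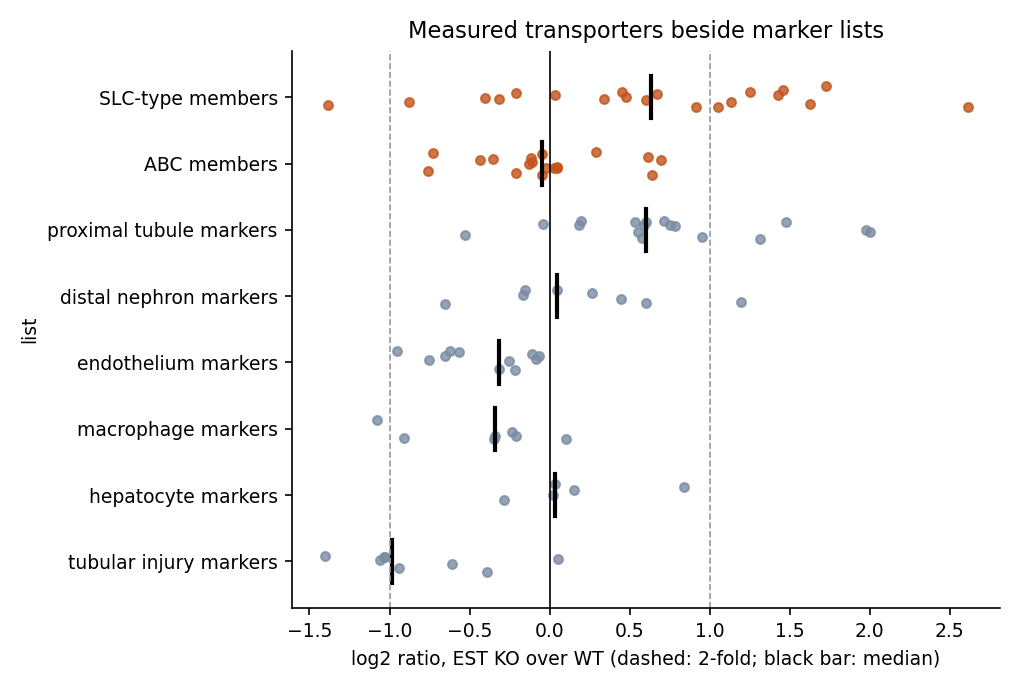
Log2 ratio (EST KO over WT) of each measured gene among SLC-type and ABC transporters (orange) and among marker lists of kidney cells, hepatocytes and injury (blue-grey); black bars are medians, and vertical position within a row carries no meaning. The SLC-type carriers (median 0.64) lie beside the proximal tubule markers (median 0.60) and spread more widely, whereas the ABC transporters (median -0.05) centre near 0.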

How the data were processed

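Biotin-labelled RNA of pooled tissue was hybridised to Affymetrix mouse expression arrays, per the labels' protocols. The authors deposited 1 linear intensity per probe set and array; the scanner software and summarisation were not given in the sources used here. From the values, each array had been scaled to a mean of 500.0 after the lowest and highest 2% were left out. The array medians (261.8 and 242.4) differed by 7.41%, under the 10% limit, so no scaling was added.

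Names came from the platform annotation in GEO: 34958 probe sets carried a single symbol, 932 several and 9211 none, and genes other than the transporters took RefSeq symbols (GRCm38.p6) through the Entrez ID (34754 probe sets matched). No gene is named from a probe set with several symbols, of which 1 listed transporters. The probe set with the highest mean over the arrays stood for its gene. Log2 ratios are EST KO minus WT with dim values at background. With 1 array per pool there is no test. Every measured transporter is named, with those below background named where they are well known; among other genes, the measured partners and carriers and up to 3 markers a list are named, besides markers below background and the transporters that complete a family, which were added after their values were seen. The transporters and lists were chosen with earlier results of these data known. The code that counts 2-fold differences was run on simulated arrays of bright genes, with known changes past 2-fold and little noise. That run checked the code and cannot show how reliable the counts reported here are. Alternatives covered background, floor, scaling and probe set choice. Python 3.11.15, pandas 2.3.3 and numpy 2.4.6 were used.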

Additional observations from a re-analysis of the deposited data

How the results depend on the processing

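Over 7 alternatives, the count of transporters at least 2-fold higher stayed between 6 (pseudocount) and 9 (median centring, mean of probe sets). The count at least 2-fold lower was 1, and became 2 with background at the 75th percentile, with no floor or with the mean of probe sets, and 0 when shared probe sets (those that may read more than 1 transcript) were left out. Across all measured genes, 2-fold counts (higher, then lower) were 226 and 105; a pseudocount gave 124 and 43, and leaving out the floor 331 and 197. The median of all transporters (0.05) was 0.25 with the mean of probe sets, 0.16 with centring, 0.17 with no floor and 0.11 with quantile normalization; centring raises every ratio by 0.11. The organic anion median (1.24) was 0.66 with the 75th percentile, 1.04 with the mean, 1.35 with centring, 0.87 with a pseudocount, 1.14 with quantile normalization and 1.46 without shared probe sets. The Slco median (0.67) was 0.29, 1.31 and 0.44 with the 75th percentile, the mean and a pseudocount. The other Slc22 median (0.41) was 0.19 with the 75th percentile, the ABCC median (-0.44) was -0.21 without shared probe sets, the ABCG median (0.05) was 0.29 with the mean, and the ABCA median (-0.02) was 0.088 with centring. The number of genes behind a median also changed. Organic anion carriers went from 8 to 10 and Slco from 5 to 9 with the 75th percentile, and Slco to 4 with the mean. Other Slc22 went from 4 to 6, ABCC from 5 to 3 and ABCG from 3 to 2 in the settings just given. With the mean 30 transporters were measured, against 38 with centring, no floor, a pseudocount or quantile normalization. How far this bears on the shifts was not tested. Of the 38 transporters, 30 kept 1 sign in every setting that gave a value. Abca1, Abca5, Abca8a, Abca12, Abcb4, Abcg1, Slc22a23 and Slc15a2 did not. No paired analysis was possible because each genotype has 1 array. Without replicate arrays, dim signal sets the limit: 42 of 80 transporters gave no value above background.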

Other observations

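Carriers of nucleosides, vitamins, choline and bile acids, which share substrates with the drug transporters, were read from a list of 20 genes, of which 18 were on the array and 8 measured. Their median log2 ratio was 0.45, with 5 higher and 3 lower in the EST KO pool. Slc19a1, the reduced folate carrier that also takes up methotrexate, read 1954 and 3790.5 (1.94-fold higher), and Slc19a2, a thiamine carrier, 1081 and 2192 (2.03-fold higher). Slc16a9, a carnitine exporter, read 595.8 and 1534, at least 2.27-fold higher. Slc51a, a subunit of the basolateral steroid and bile acid exporter OST, read 328.6 and 1167, at least 1.73-fold higher. Slc44a1, a choline carrier, was 1.91-fold lower (2356 and 1233), and Slc44a2, its relative, read 785.3 and 771.4. Slc29a3, a lysosomal nucleoside carrier, read 1029 and 1111, and Slc29a4, a monoamine carrier, 2674 and 2409. The urate carrier Slc2a9 (261.1 and 299.3) and the bile acid carrier Slc10a2 (8.5 and 32.7) lay below background in both pools.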
